A study of Homo sapiens with 27 samples.

Results

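Arginine tRNAs with the anticodons ACG, CCG, CCT and TCG were followed across knockouts of pseudouridine synthases. The members are all rows of the cytosolic tRNA tables whose tRNA name starts with Arg- and has an anticodon other than TCT, at every listed position. They comprise 49 of the 705 listed sites and 15 of the 250 listed isodecoders, which are tRNAs that share an anticodon and differ elsewhere in sequence. Arg-TCG has 20 of these sites in 6 isodecoders, Arg-CCT 16 in 5, Arg-ACG 7 in 2 and Arg-CCG 6 in 2. The sites lie at 7 positions of the conventional tRNA numbering: 10 at position 27, 2 at position 28 and 9 at position 39 of the anticodon stem, 5 at position 50 and 1 at position 61 of the T stem, 14 at position 55 of the T loop and 8 at position 72 of the acceptor stem. Isodecoders of one isoacceptor share most of their sequence, and how reads were divided between them is not given in the sources used here, so they are not independent of each other.

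Pseudouridine (Ψ) is an isomer of uridine that pseudouridine synthases make in finished RNA chains, and tRNA is among the RNAs richest in it. PUS1 is known for the top of the anticodon stem, at positions 27 and 28, and PUS3 for its lower end, at position 39. PUS7 recognises a short sequence context and is known for sites in the D arm and the anticodon, whereas TRUB1 and PUS10 are known for position 55 of the T loop. RPUSD1 is a human member of the RluA family of these enzymes, which is named after a bacterial synthase.

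In PRAISE, the assay used, a bisulfite-type treatment causes Ψ to be read as a deletion. The level of a site is therefore the percentage of covering reads with a deletion there. All samples are small RNA from HEK293T, a human embryonic kidney line, demethylated with the AlkB enzyme before treatment. The genotypes used are PUS1 KO, PUS7 KO, TRUB1 KO, RPUSD1 KO and WT, each with 2 treated libraries and 1 untreated library, together 15 of the 27 samples. The labels call the treated libraries technical replicates, so the p-values measure the spread between libraries and not between cultures. How the knockout lines were made, and whether each is 1 clone, is not given in the sources used here, and these small RNA libraries do not measure the enzymes themselves.

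Median coverage of the member sites was between 22996 and 33807 reads per treated library in PUS1 KO, PUS7 KO, TRUB1 KO and WT. The thinnest sites there were position 39 of Arg-TCG-6, with 30 to 323 reads, and position 72 of Arg-CCT-5, with 149 to 256. In RPUSD1 KO the 6 listed member sites had 43 to 1168 reads. Intervals, tests and floors cover counting error and the spread of 2 libraries. PUS7 KO replicate 2 stood above replicate 1 at 223 of 238 position 55 sites, 13 of the 14 members among them, and the median of replicate 2 minus replicate 1 was 2.57 points over all 238. The RPUSD1 KO treated libraries differed by less than sampling noise over their 16 listed sites (chi-square test of counts, p = 0.598), at low depth, and by up to 1.26 points at the members.

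In WT cells the highest levels of these arginine tRNAs were at position 72 of Arg-TCG and at position 55, where Arg-ACG alone was below 50%. At position 27 the median of the 10 sites was 27.4%, with Arg-TCG-6 highest at 71.9% and 76.0% and Arg-ACG-2 lowest at 18.4% and 17.1% in the 2 WT libraries. Arg-CCG-2 was the only other site above 40% there, at 68.5% and 69.9%, and Arg-TCG-5 and Arg-TCG-1 were the neighbours in this order whose libraries overlapped. Arg-TCG-1 to Arg-TCG-5 thus lay within a narrow band, from 25.0% to 28.01%, and Arg-TCG-6 stood apart from it. Position 39 had a median of 80.9%, from 86.2% and 86.5% in Arg-CCG-1 down to 45.5% and 48.0% in Arg-ACG-2. Arg-ACG-1 had 82.8% and 83.6% at the same position, well above its sister Arg-ACG-2.

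Position 50 ranged over the 5 sites with no overlap between neighbours, from 73.2% and 72.6% in Arg-CCT-4 to 7.95% and 8.16% in Arg-CCT-3. Between these, the mean was 61.5% in Arg-ACG-2, 32.4% in Arg-CCG-2 and 26.1% in Arg-CCT-5. At position 55, Arg-CCT-5 was highest with 93.9% and 93.5% and Arg-ACG-2 lowest with 20.1% and 20.01%. Arg-ACG-1 followed from below at 43.0% and 44.8%, and the other 12 sites had means of 64.3% or more. The untreated WT level was at most 0.625% at all of these T loop sites. The tables list position 55 as a span of 2 neighbouring bases, within which a deletion cannot be placed, and the same holds for position 28 of Arg-CCT, position 61 of Arg-CCT-5 and position 72 of Arg-TCG.

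The PUS1 knockout asks which sites need PUS1. All 10 position 27 sites and both position 28 sites of these tRNAs fell in PUS1 KO. In points the loss was largest in Arg-TCG-6. More of the WT level remained in Arg-CCG-2 and at both position 28 sites, which are in Arg-CCT, than at the other sites. Position 39 of the same stem was above WT at all 9 sites, by a median of 4.55 points, and 1 of these passed the threshold for a call. Position 50 of Arg-CCG-2, in the T stem, rose.

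Each site was tested with a limma-moderated quasi-binomial model fitted over the whole table, and a call needed both an adjusted p under 0.05 and a change of 10 points or more. By this rule 12 of 49 member sites were lower in PUS1 KO, beside 16% of the 701 sites tested, and 2 were higher, beside 7.7%. The median difference was -0.18 points over the members and 0.03 points over all sites. Arg-TCT, the remaining arginine isoacceptor, had 5 of 18 sites lower and 5 higher.

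Arg-TCG-6 had 7.24% and 6.96% at position 27 in PUS1 KO libraries, against 71.9% and 76.0% in WT. The difference of -66.9 points (SE 1.72, adjusted p = 6.31e-06) was the largest among the members in PUS1 KO, and 9.60% of the WT level remained. Arg-CCG-2 had 27.8% and 27.8% in PUS1 KO, against 68.5% and 69.9% in WT, a difference of -41.4 points (SE 0.434, adjusted p = 2.95e-07). Here 40.2% of the WT level remained, more than at any other member at position 27, and both PUS1 KO libraries lay below both WT libraries, as they did at 39.9% of all sites tested.

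Arg-CCG-1 had 7.25% and 7.19% at position 27 in PUS1 KO, against 31.9% and 34.1% in WT. Arg-ACG-1 had 4.55% and 4.48% in PUS1 KO, against 22.2% and 20.9% in WT, and Arg-ACG-2 had 4.16% and 4.06% in PUS1 KO, against 18.4% and 17.1% in WT. These 3 sites differed by -25.8, -17.0 and -13.6 points, with adjusted p of at most 7.08e-06, and retained 21.9%, 20.9% and 23.1% of the WT level. The 5 similar Arg-TCG isodecoders moved almost as one. Their PUS1 KO levels were 4.04% and 3.97% in Arg-TCG-1, 4.79% and 4.56% in Arg-TCG-2, 4.54% and 4.31% in Arg-TCG-3, 5.28% and 5.09% in Arg-TCG-4, and 5.21% and 5.05% in Arg-TCG-5. The corresponding WT levels were 24.7% and 25.4% in Arg-TCG-1, 27.5% and 27.7% in Arg-TCG-2, 26.9% and 27.4% in Arg-TCG-3, 27.8% and 28.2% in Arg-TCG-4, and 25.1% and 25.2% in Arg-TCG-5. Differences ran from -20.0 to -22.9 points over these 5, with adjusted p of at most 5.98e-07.

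Position 28 kept more of the WT level. Arg-CCT-3 had 30.2% and 30.1% there in PUS1 KO, against 52.6% and 52.2% in WT, a difference of -22.3 points (SE 0.471, adjusted p = 2.44e-06). Arg-CCT-4 had 51.2% and 51.7% in PUS1 KO, against 63.5% and 63.6% in WT, a difference of -12.1 points (SE 0.343, adjusted p = 7.69e-06). These sites kept 57.5% and 81.0% of the WT level, although the groups did not overlap at either. In the authors' deposited table both are labelled PUS1-independent, whereas all 10 position 27 sites are labelled PUS1-dependent.

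In the other cytosolic tRNAs, 36 of 36 tested sites at position 27 were lower and 57 of 83 at position 28. Their median share of the WT level that remained was 11.3% at each of these positions, against 19.5% at the 10 arginine sites of position 27 and 69.3% at the 2 of position 28. The untreated level of the members at positions 27 and 28 was at most 0.293% in every genotype. The non-member sites most like the arginine mean at position 27 over the 8 treated libraries of PUS1 KO, PUS7 KO, TRUB1 KO and WT were position 27 of Trp-CCA-3, Trp-CCA-4 and Ile-AAT-5. Their root mean square differences from that mean were 1.497, 2.65 and 2.96 points.

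**Figure D1:**
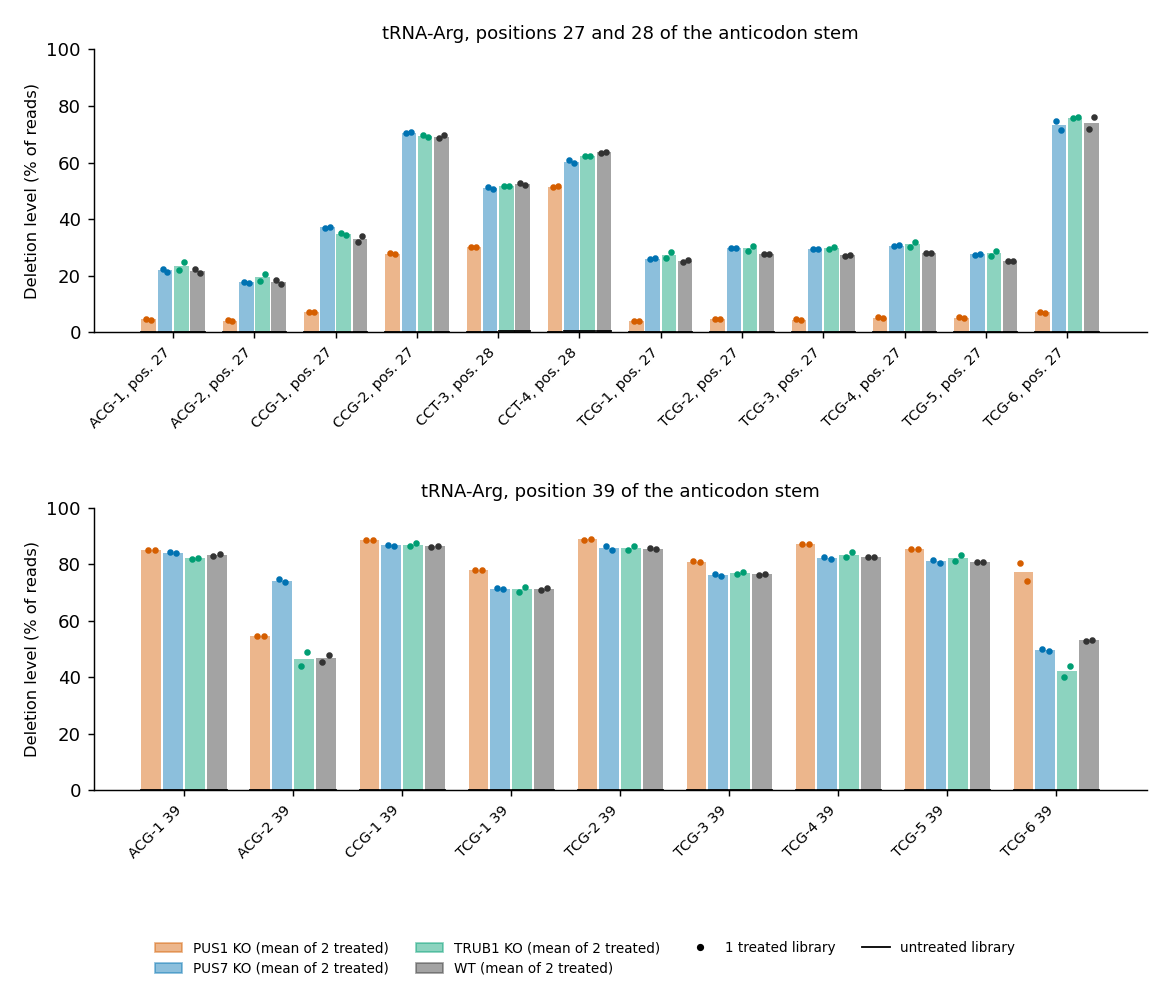
Deletion level (percent of covering reads) at positions 27 and 28 (upper panel) and 39 (lower panel) of each arginine tRNA isodecoder. Bars are means of 2 treated libraries, dots are single treated libraries and black lines are the untreated library. In PUS1 KO every site of the upper panel lies below WT, with most of the level kept at position 28 of Arg-CCT-4, and every site of the lower panel lies above WT.

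At position 39, 9 of 9 sites had a higher mean in PUS1 KO than in WT, and at each of the 9 the adjusted p was under 0.05. Among the other cytosolic tRNAs 86 of 109 position 39 sites had a higher mean and 59 of them a rise with an adjusted p under 0.05, and over all sites tested this was 26.7%. The differences at 8 of the 9 arginine sites were below 10 points, from 1.91 in Arg-ACG-1 to 7.87 in Arg-ACG-2. The ninth, Arg-TCG-6, had 80.5% and 74.2% in PUS1 KO, from 323 and 298 reads, against 52.7% and 53.3% in WT, from 55 and 30 reads. Its rise of 24.3 points (SE 8.02, adjusted p = 0.0457) has a 95% interval from 3.15 to 45.4 points, and the call was lost without PUS1 KO replicate 1 (21.1 points, adjusted p = 0.100), without WT replicate 1 (24.0 points, 0.211) and without WT replicate 2 (24.6 points, 0.132). Each of these fits has 1 library in that arm, assumed to vary like the others, and the difference stayed about as large. Summed over the Arg-TCG isodecoders, the difference at position 39 was 4.88 points. By the call rule, position 39 of the other cytosolic tRNAs was higher at 26 of 109 sites and lower at 2, with a median difference of 3.14 points against 4.55 for the members.

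Coverage within these tRNAs moved with genotype in the treated libraries. Per 100 reads at position 27, Arg-TCG-3 had 127 and 125 reads at position 39 in PUS1 KO, against 206 and 205 in WT, while the untreated libraries had 113 in PUS1 KO and 114 in WT. Arg-CCG-1 had 141 and 138 in PUS1 KO, against 221 and 217 in WT, and Arg-ACG-1 had 90.9 and 94.9 in PUS1 KO, against 169 and 153 in WT. In 8 of the 9 arginine tRNAs with a listed position 39 this ratio was lower in both PUS1 KO libraries than in both WT libraries. Arg-TCG-6, the called site, went the other way, with 10.3 and 10.1 in PUS1 KO against 8.31 and 4.50 in WT. A lower ratio in both libraries than in both WT libraries was also seen in 6 of the 9 in PUS7 KO and in 3 in TRUB1 KO. It was higher in 2 in PUS7 KO and in 1 in TRUB1 KO. The ratio was not computed for other tRNAs, and it does not show whether coverage changed at position 27 or at position 39. The part of coverage in the position 39 levels was not tested.

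Position 50 of Arg-CCG-2 had 54.6% and 54.2% in PUS1 KO, against 32.3% and 32.4% in WT, from 127347 reads or more in each library. The rise of 22.1 points (SE 0.189, adjusted p = 1.21e-07) is far beyond the spread of the libraries. TRUB1 KO, another knockout of the same line, had 26.9% and 27.7% at this site, so PUS1 KO was the highest of the 4 genotypes measured there. The other 4 position 50 sites differed from WT by between -0.03 and 6.17 points in PUS1 KO and were not called. Per 100 reads at position 27, Arg-CCG-2 had 115 and 116 reads at position 50 in PUS1 KO, against 160 and 154 in WT, with 120 in the untreated libraries of both; the part of this coverage in the rise was not tested.

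At positions 55, 61 and 72, no member site was called in PUS1 KO. Position 55 differed by -3.49 to 3.60 points over 14 sites and position 72 by -6.54 to -0.13 points over 8 sites, and these small differences reached an adjusted p under 0.05 at 11 and 2 sites, beside 56.3% of all sites tested. An unadjusted p under 0.05 was reached at 11, 1 and 3 sites of positions 55, 61 and 72. Fisher's exact test and limma on percentage points also gave 0 calls at these positions.

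**Figure D2:**
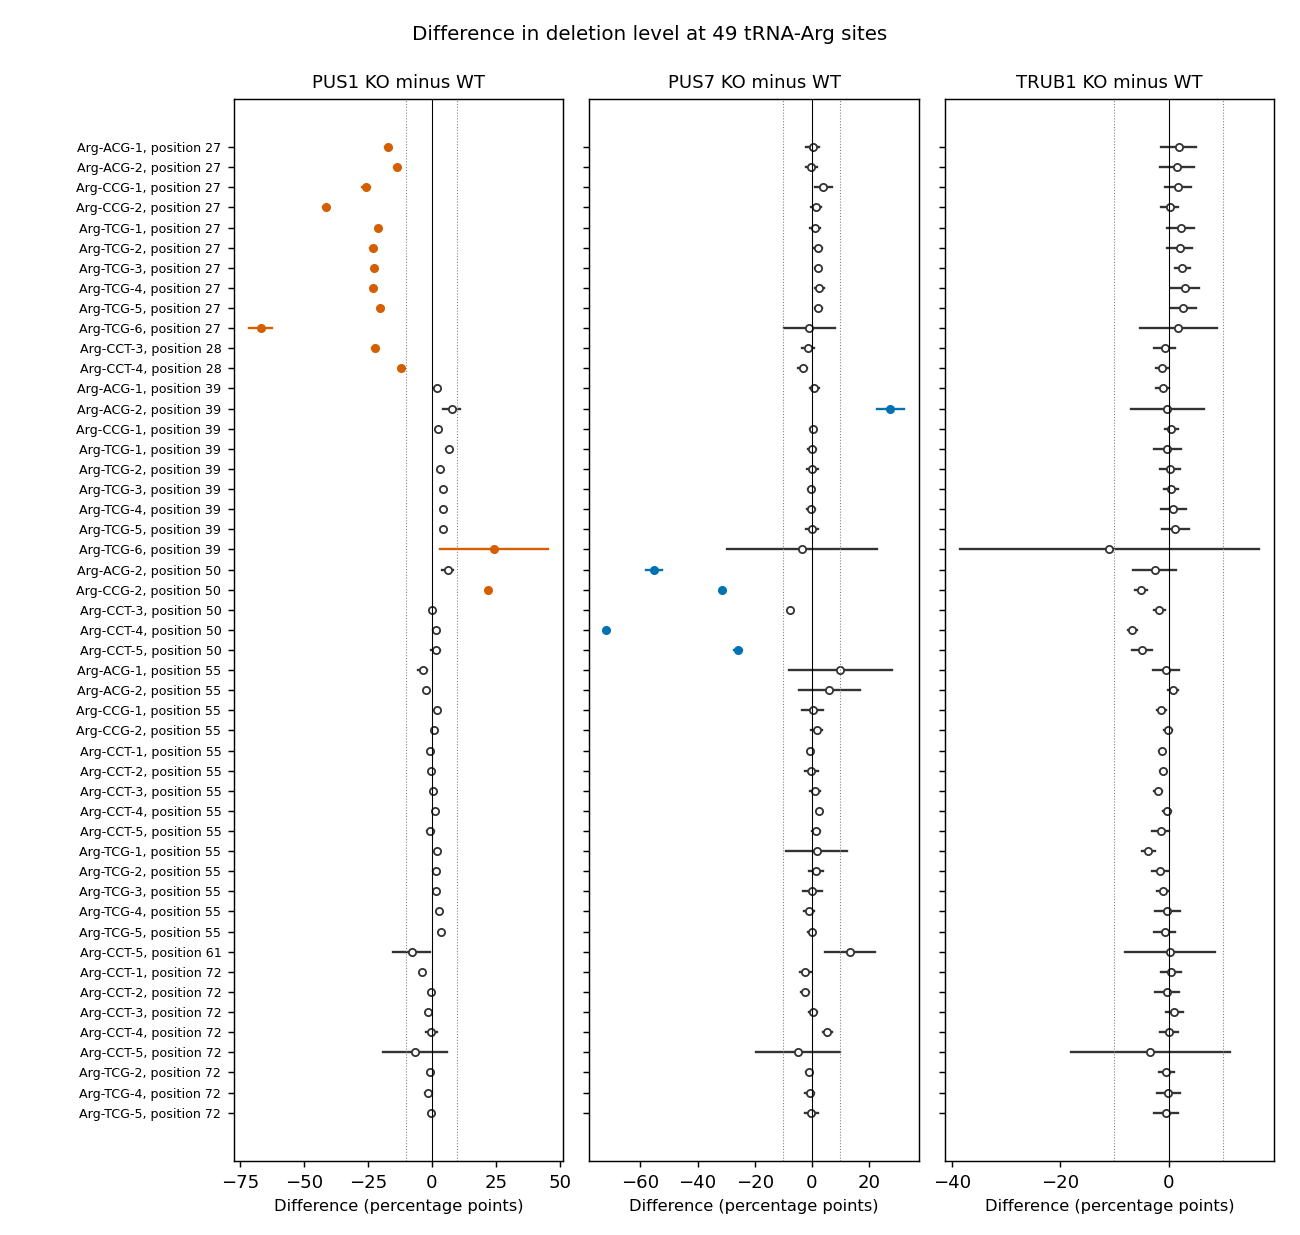
Difference in deletion level (percentage points) of PUS1 KO, PUS7 KO and TRUB1 KO from WT at all 49 sites, with 95% intervals as horizontal lines. Filled points were called, and dotted lines mark 10 points either way. PUS1 KO is lower at positions 27 and 28, PUS7 KO at position 50, and no site was called in TRUB1 KO.

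The PUS7 knockout asks which sites need PUS7. Position 50, near the start of the T stem, was at 10.2% of its WT level or less in PUS7 KO at all 5 arginine sites. Of these, 4 were called, and the fifth, Arg-CCT-3, had a WT level under the 10 points a call needs. Of the 49 members, 4 were lower, beside 11% of the 700 sites tested, and 1 was higher, beside 2.86%. The median difference was 0.16 points over the members and 0.34 points over all sites.

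Arg-CCT-4 had 0.959% and 0.937% at position 50 in PUS7 KO, against 73.2% and 72.6% in WT, a difference of -71.9 points (SE 0.215, adjusted p = 4.33e-06). Arg-CCG-2 had 0.954% and 0.981% in PUS7 KO, against 32.3% and 32.4% in WT, and differed by -31.4 points (SE 0.121, adjusted p = 3.98e-06). Arg-CCT-5 had 0.217% and 0.251% in PUS7 KO, against 26.6% and 25.7% in WT, and differed by -25.9 points (SE 0.413, adjusted p = 6.17e-05). The treated PUS7 KO libraries of these 3 tRNAs were all under 1%, beside untreated PUS7 KO levels of 0.514% in Arg-CCT-4, 0.438% in Arg-CCG-2 and 0.426% in Arg-CCT-5.

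Arg-ACG-2 kept more. It had 6.52% and 5.98% at position 50 in PUS7 KO, against 62.4% and 60.7% in WT, a difference of -55.3 points (SE 0.853, adjusted p = 1e-04), and 10.2% of the WT level remained. Its untreated level was also higher in the knockout, 2.90% in PUS7 KO against 0.948% in WT. The share that remained was computed without subtracting the untreated levels. Arg-CCT-3 had 0.393% and 0.379% in PUS7 KO, against 7.95% and 8.16% in WT, a difference of -7.67 points (adjusted p = 6.41e-05), and 4.80% of the WT level remained. That remainder is no more than background, since untreated PUS7 KO levels at position 50 of Arg-CCT were 0.426% to 0.514%. Both PUS7 KO libraries lay below both WT libraries at all 5 sites, beside 29.3% of all sites tested. In the authors' deposited table all 5 are labelled PUS7-dependent.

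The 5 position 50 sites listed for other cytosolic tRNAs, in tRNA-Asn and tRNA-Cys, gave 0 calls by the moderated model (unadjusted p under 0.05 at 0), by Fisher's exact test and by limma on percentage points. At Asn-GTT-6, Asn-GTT-9 and Cys-GCA-4 no lower call was possible by any of these tests. Their WT libraries had 6.08% and 6.31%, 5.45% and 5.37%, and 8.96% and 9.19% in that order, below the fall a call needs. Differences from WT over all 5 sites ran from -0.56 to 0.63 points in PUS7 KO. The highest of them, Cys-GCA-15, had 50.8% and 55.8% in PUS7 KO, against 54.7% and 51.7% in WT, with more than 21% in both untreated libraries. Cys-GCA-16 had 23.7% and 29.7% in PUS7 KO, against 25.9% and 26.3% in WT, so the groups overlapped at both. These names were chosen after their values were seen. Over the 8 treated libraries of PUS1 KO, PUS7 KO, TRUB1 KO and WT, the non-member sites most like the arginine mean at position 50 were all in the D arm: position 13 of Gln-CTG-5, Gly-TCC-2 and Val-AAC-3, at root mean square differences of 4.54, 4.88 and 5.40 points. The PUS7 KO libraries are among these 8, so the choice favours sites that are also low in PUS7 KO.

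**Figure D3:**
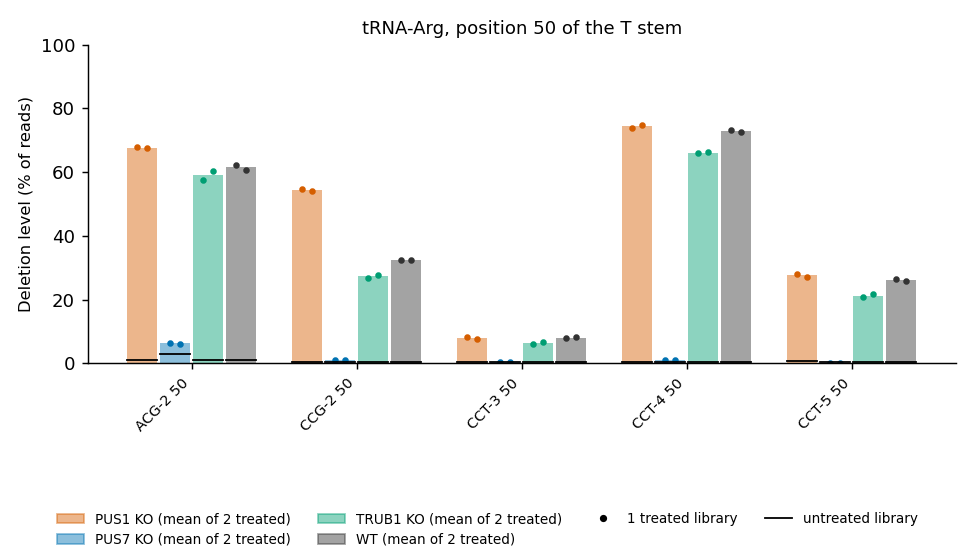
Deletion level (percent of covering reads) at position 50 of the 5 arginine tRNAs that list it. Bars are means of 2 treated libraries, dots single treated libraries and black lines the untreated library. PUS7 KO lies near the untreated level except in Arg-ACG-2 (6.25%), and Arg-CCG-2 is higher in PUS1 KO (54.4%) than in WT (32.4%).

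One member rose in PUS7 KO. Position 39 of Arg-ACG-2 had 74.8% and 73.6% in PUS7 KO, against 45.5% and 48.0% in WT, a rise of 27.5 points (SE 1.46, adjusted p = 0.00244). The call was lost without WT replicate 1 (26.2 points, adjusted p = 0.0650) and without WT replicate 2 (28.7 points, 0.0609), each of which leaves 1 WT library, while the difference stayed about as large. With the counts of Arg-ACG-1 and Arg-ACG-2 summed the difference was 1.92 points (adjusted p = 0.121). TRUB1 KO had 44.1% and 48.96% at this site, near WT, and PUS1 KO had 54.7% and 54.5%. The direct comparison of PUS7 KO with PUS1 KO, which uses no WT library, gave a difference of 19.6 points (SE 1.11, adjusted p = 0.0013). Here too the summed counts of Arg-ACG-1 and Arg-ACG-2 gave little difference, 0.268 points (adjusted p = 0.742).

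Coverage of this tRNA also differed in PUS7 KO. Per 100 reads at position 27 there were 66.9 and 60.8 at position 39 in PUS7 KO, against 19.7 and 19.2 in WT, and 106 in the untreated library of each. PUS1 KO had 14.9 and 16.1 and TRUB1 KO 20.6 and 19.7. Untreated reads at position 27 of Arg-ACG-2 numbered 94614 in PUS7 KO, against 226392 in WT, 251234 in PUS1 KO and 255890 in TRUB1 KO. In Arg-ACG-1 they numbered 175753 in PUS7 KO and 143092 in WT. The part of coverage in the rise was not tested. Arg-ACG-1 had 84.4% and 83.8% at position 39 in PUS7 KO, against 82.8% and 83.6% in WT, and was not called. Per 100 reads at position 27, its treated reads at position 39 were also higher in PUS7 KO, at 190 and 178, against 169 and 153 in WT.

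Other members in PUS7 KO stayed under the threshold. Position 61 of Arg-CCT-5 had 80.0% and 77.5% in PUS7 KO, against 67.5% and 63.4% in WT, a difference of 13.3 points that was not called (adjusted p = 0.0635), although Fisher's exact test and limma on percentage points both called it. This site has by far the highest background of the members, with 38.8% in the untreated PUS7 KO library and 37.6% in the untreated WT library. Position 72 of Arg-CCT-4 had 66.3% and 66.6% in PUS7 KO, against 60.4% and 61.7% in WT, a difference of 5.41 points (adjusted p = 0.012), below the 10 points a call needs. Position 27 differed by -0.85 to 4.04 points and position 28 by -3.25 and -1.39 points, and 0 of these 12 sites were called by the moderated model, by limma on percentage points or by Fisher's exact test (unadjusted p under 0.05 at 5 sites of position 27 and 1 of position 28). At position 55, Arg-ACG-1 had 46.7% and 61.01% in PUS7 KO, against 43.0% and 44.8% in WT, and the 14.4 points between its 2 PUS7 KO libraries exceeded the difference of 9.94 points from WT (adjusted p = 0.365).

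The TRUB1 knockout asks which sites need TRUB1. No arginine member was called: 0 of 49 were lower, beside 11.1% of the 701 sites tested, and 0 were higher, beside 0.428%. By the same limma-moderated test 15 members had an unadjusted p under 0.05 and 10 an adjusted p under 0.05, beside 34.1% of all sites tested, 9 of them lower, beside 28.5%, and all 10 by less than 10 points. Fisher's exact test, run on the counts summed over libraries, also gave 0, whereas limma on percentage points gave 1 lower, position 39 of Arg-TCG-6. The absence of calls was shared by Arg-TCT. By the moderated model it had 0 of 18 sites lower and 0 higher in TRUB1 KO (unadjusted p under 0.05 at 10).

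At position 55, 0 of 14 arginine sites were called (unadjusted p under 0.05 at 7, and 0 calls by limma on percentage points or Fisher's exact test), with a median difference of -1.09 points, 13 of 14 below WT, and a range from -3.74 to 0.79. Among the other cytosolic tRNAs 206 of 224 position 55 sites were below WT and 77 were called lower, with a median difference of -6.83 points. The difference between these groups of tRNAs was not tested. The most negative arginine difference was in Arg-TCG-1, which had 60.3% and 60.8% in TRUB1 KO, against 64.5% and 64.1% in WT (adjusted p = 0.00354). Arg-CCT-5, the highest in WT, had 92.1% and 92.4% in TRUB1 KO, against 93.9% and 93.5% in WT. The members with the lowest WT level were as close to WT: Arg-ACG-2 had 20.5% and 21.2% in TRUB1 KO, against 20.1% and 20.01% in WT, and Arg-ACG-1 had 44.2% and 42.6% in TRUB1 KO, against 43.0% and 44.8% in WT.

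**Figure D4:**
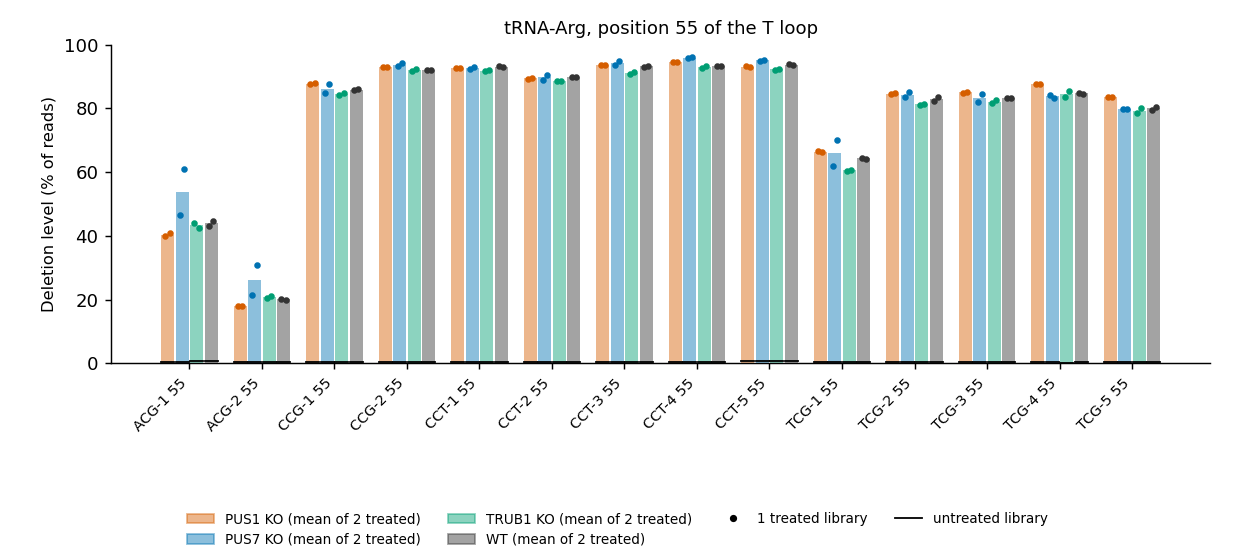
Deletion level (percent of covering reads) at position 55 of 14 arginine tRNA isodecoders. Bars are means of 2 treated libraries, dots single treated libraries and black lines the untreated library. TRUB1 KO lies within 4 points of WT at every site, Arg-ACG-1 and Arg-ACG-2 are lowest in every genotype, and the 2 PUS7 KO libraries are far apart in Arg-ACG-1.

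Position 50 was below WT in TRUB1 KO at 5 of 5 arginine sites, with differences from -6.71 to -1.69 points, an adjusted p under 0.05 at 4 of them and no call. The other cytosolic tRNAs were also below WT at 5 of 5 position 50 sites, with an adjusted p under 0.05 at 2. Arg-CCT-4 had 66.1% and 66.2% in TRUB1 KO, against 73.2% and 72.6% in WT (adjusted p = 0.00015). At Arg-CCG-2 the values were 26.9% and 27.7% in TRUB1 KO, against 32.3% and 32.4% in WT (adjusted p = 0.000976). Both TRUB1 KO libraries lay below both WT libraries at these sites, as at 44.7% of all sites tested. Position 27 was above WT in TRUB1 KO at 10 of 10 arginine sites, by 0.19 to 3.02 points, with a rise at an adjusted p under 0.05 at 1, beside 5.56% of all sites tested. The other cytosolic tRNAs were above WT at 29 of 36 position 27 sites.

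RPUSD1 KO was compared with WT at position 72, at the end of the acceptor stem. In WT this position was listed in Arg-CCT and Arg-TCG. Arg-TCG-4 was highest with 95.8% and 95.2% in the WT libraries, and Arg-CCT-5 lowest with 47.0% and 49.7%. Among these tRNAs, the 3 Arg-TCG sites all stood above 90% and the 5 Arg-CCT sites between 48.3% and 63.2%. Only 1 site at this position is listed outside the members, in Arg-TCT.

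The RPUSD1 KO table holds 16 sites, all given by the authors as RPUSD1-dependent, and 6 are members. Because naming a site as dependent uses this knockout, the values are a description without a test. By size alone, all 6 lay 10 points or more below WT, beside 100% of the 16 listed sites, and 0 above, beside 0%, which the choice of the list fixes. Position 72 of Arg-TCG-4 and of Arg-CCT-5 is not among the 16, and no RPUSD1 KO value was analysed for them.

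Arg-CCT-1 had 1.03% and 1.61% at position 72 in RPUSD1 KO, against 63.5% and 62.9% in WT. Arg-CCT-2 had 3.02% and 2.30% in RPUSD1 KO, against 58.7% and 58.9% in WT. Arg-CCT-3 had 0.534% and 1.00% in RPUSD1 KO, against 58.4% and 58.2% in WT. Arg-CCT-4, for which 1059 and 596 reads were available in the knockout, had 0.755% and 0.503% in RPUSD1 KO, against 60.4% and 61.7% in WT. In these 4 tRNAs at most 4.52% of the WT level remained.

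Both Arg-TCG members have a higher WT level and rest on few knockout reads. Arg-TCG-2 had 3.39% and 4.65% in RPUSD1 KO, from 59 and 43 reads, against 94.7% and 94.4% in WT. Arg-TCG-5 had 0.917% in RPUSD1 KO replicate 1, from 109 reads, and 0 deletions in 75 reads in replicate 2, which allows a level of up to 4%, against 91.6% and 90.8% in WT. Groups were far apart at all 6 sites. The untreated RPUSD1 KO library was above its own treated mean in Arg-CCT-1, at 2.04%, in Arg-TCG-5, at 2.68%, and in Arg-CCT-3, at 0.955%.

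The WT means printed beside these sites in the authors' deposited table for RPUSD1, as treated minus untreated, were not those of the WT libraries used here. The deposited table gives 46.7 points for Arg-CCT-1, 61.8 for Arg-CCT-2, 38.2 for Arg-CCT-3, 31.4 for Arg-CCT-4, 73.3 for Arg-TCG-2 and 57.5 for Arg-TCG-5. The same quantity from the WT libraries was 62.9, 58.6, 58.1, 60.9, 93.9 and 90.3 points in that order. RPUSD1 KO levels of 0.459% to 4.02% lie below either set.

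PUS1 KO, PUS7 KO and TRUB1 KO were near WT at position 72, where 0 of 8 sites were called in any of the 3. Position 72 of Arg-TCG-4 had 93.8% and 94.5% in PUS1 KO, 94.5% and 94.9% in PUS7 KO and 94.7% and 96.2% in TRUB1 KO, against 95.8% and 95.2% in WT. Arg-CCT-5 had 38.7% and 44.9% in PUS1 KO, 41.4% and 45.5% in PUS7 KO and 45.1% and 44.9% in TRUB1 KO, against 47.0% and 49.7% in WT, from 149 to 256 reads. An adjusted p under 0.05 was reached at 2 sites in PUS1 KO, 1 in PUS7 KO, where 22.1% of all sites tested reached it, and 0 in TRUB1 KO, and an unadjusted one at 3, 4 and 0. The counts by Fisher's exact test and by limma on percentage points were also 0 in each.

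**Figure D5:**
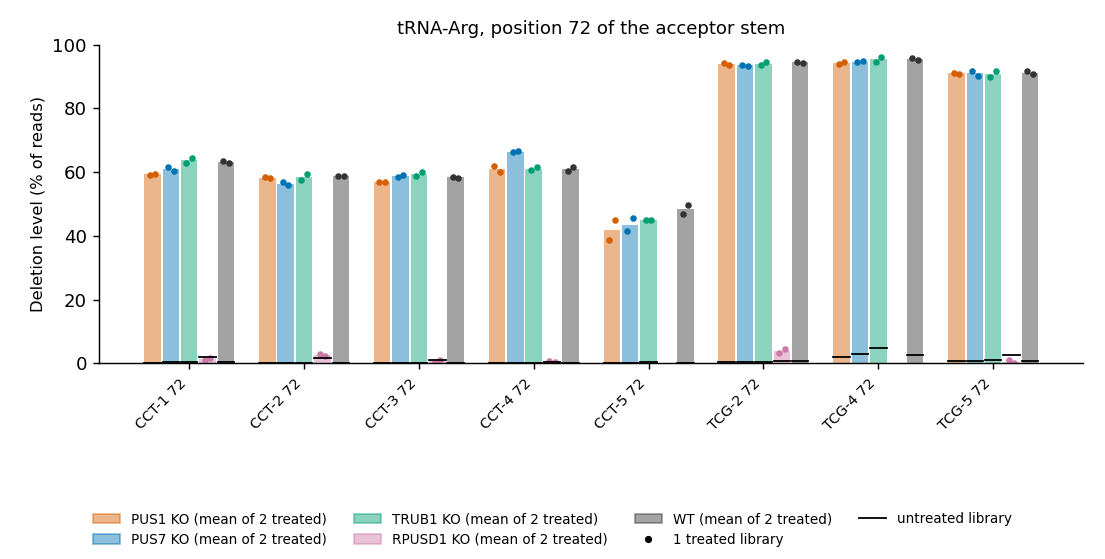
Deletion level (percent of covering reads) at position 72 of the acceptor stem in 8 arginine tRNA isodecoders. Bars are means of 2 treated libraries, dots single treated libraries and black lines the untreated library. RPUSD1 KO is shown for the 6 sites listed for it, all below 5%, and Arg-TCG stands above Arg-CCT in the other genotypes.

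PUS7 KO and TRUB1 KO were also compared directly with PUS1 KO, without any WT library, and these comparisons share the PUS1 KO libraries. In PUS7 KO against PUS1 KO, 4 members were lower, beside 16% of 702 sites tested, and 13 were higher, beside 16.8%. The 4 lower ones are at position 50. At Arg-CCG-2 the gap was wider than against WT, with 0.954% and 0.981% in PUS7 KO, against 54.6% and 54.2% in PUS1 KO, a difference of -53.4 points (SE 0.15, adjusted p = 2.84e-06). The 13 higher ones are the 10 sites of position 27, position 28 of Arg-CCT-3, position 39 of Arg-ACG-2 and position 61 of Arg-CCT-5. That last site differed by 21.1 points (SE 2.48, adjusted p = 0.00843), and the call was lost without PUS1 KO replicate 1 (21.9 points, adjusted p = 0.104) and without PUS1 KO replicate 2 (20.4 points, 0.115), each of which leaves 1 PUS1 KO library.

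In TRUB1 KO against PUS1 KO, 2 members were lower, beside 19.4% of 702 sites tested, and 12 were higher, beside 16.8%. The 12 higher ones are all sites of positions 27 and 28. Arg-TCG-6 had 75.6% and 76.0% at position 27 in TRUB1 KO, against 7.24% and 6.96% in PUS1 KO, a difference of 68.7 points (SE 1.54, adjusted p = 7.62e-06). The lower ones are position 50 of Arg-CCG-2, at 26.9% and 27.7% in TRUB1 KO against 54.6% and 54.2% in PUS1 KO, and position 39 of Arg-TCG-6, at 40.3% and 43.9% in TRUB1 KO against 80.5% and 74.2% in PUS1 KO. Position 39 of Arg-TCG-6 differed by -35.2 points (SE 7.96, adjusted p = 0.0154) from 77 and 66 reads in TRUB1 KO, and the call was lost without TRUB1 KO replicate 1 (-33.4 points, adjusted p = 0.0508), without PUS1 KO replicate 1 (-32.1 points, 0.101) and without PUS1 KO replicate 2 (-38.4 points, 0.0587). Each leaves 1 library in that arm, and the difference stayed about as large.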

How the data were processed

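The authors' deposited tables give, per the file headers, the count of reads with a deletion and the count of reads covering each site for each library. The deposited deletion rates and WT means are in percent. The deposited label on dependence is text of another (other) kind. Per the submitters' processing notes cutadapt, UMI-tools 1.0.0, BWA, SAMtools 1.14 and GRCh38 were used; their roles, the filters on sites and the sharing of reads between isodecoders are not given in the sources used here. The tables give no sequence and pair no genome coordinate with these tRNAs.

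Levels were deletions over covering reads per treated library, and the deposited rates matched them within 0.0001 points at every site compared. For WT treated replicate 2 no deposited rate was compared. A quasi-binomial model was fitted to each site that had 20 reads or more in all treated libraries of a comparison. Its dispersion, never below 1, was moderated across sites by squeezeVar of limma 3.58.1 under R 4.3.3, and two-sided F tests were adjusted by Benjamini-Hochberg over the table. Calls needed an adjusted p under 0.05 and 10 points. The procedure was tested on simulated data. These had the same set spread between libraries in every comparison, which was not fitted to the spread of each genotype. Untreated levels have exact Clopper-Pearson 95% intervals, and the floor of a 0 is 3 counts. The members, lists and named sites were chosen with earlier results of these data known: sites named by rule are those called against WT and the highest and lowest in WT at each position. Position 39 of Arg-ACG-1 and Arg-TCG-3, position 55 of Arg-ACG-1 and Arg-TCG-1 and position 72 of Arg-CCT-4 in PUS7 KO were named after their values were seen. The comparisons with WT share its libraries. The 12 samples of other genotypes were not used here.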

Additional observations from a re-analysis of the deposited data

Results flagged for a closer look

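In 5 cases an untreated knockout library, which enters no comparison above, had a deletion level at least 1 point above the untreated WT library. Position 50 of Arg-ACG-2 had 2.90% in untreated PUS7 KO, with an exact 95% interval from 2.81% to 2.99% over 136225 reads, against 0.948% in untreated WT over 348690 reads. Position 72 of Arg-TCG-4 had 4.68% in untreated TRUB1 KO (4.26% to 5.14%), against 2.72% in untreated WT (2.45% to 3.01%). The other 3 are in untreated RPUSD1 KO at position 72. Arg-CCT-1 had 2.04% there (1.45% to 2.79%, 1861 reads), against 0.294% in untreated WT. Arg-CCT-2 had 1.68% (1.04% to 2.55%, 1251 reads), against 0.244% in untreated WT, and Arg-TCG-5 had 2.68% (1.67% to 4.07%, 784 reads), against 0.885% in untreated WT. Each is a single library without a replicate, and the intervals cover counting error.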

How the results depend on the processing

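No called site of these tRNAs changed direction under any alternative that was run. Summing counts per isoacceptor and position, which leaves fewer sites, gave 4 lower and 1 higher in PUS1 KO, 0 higher in PUS7 KO, 2 lower in RPUSD1 KO, 5 higher in PUS7 KO against PUS1 KO and 4 higher in TRUB1 KO against PUS1 KO. A call at 5 points gave 5 higher in PUS1 KO, 2 higher in PUS7 KO, 2 lower in TRUB1 KO and 8 lower in TRUB1 KO against PUS1 KO. At a coverage minimum of 100 reads, 1 was higher in PUS1 KO and 1 lower in TRUB1 KO against PUS1 KO. In PUS7 KO 2 were higher with limma on percentage points, with Fisher's exact test on summed counts and with the dispersion from all genotypes, and limma gave 1 lower in TRUB1 KO. Leaving out 1 treated library at a time gave 1 to 2 higher in PUS1 KO, 0 to 4 higher in PUS7 KO and 1 to 4 lower in TRUB1 KO against PUS1 KO; the cause was not tested. Lower sites numbered 12 in PUS1 KO and 4 in PUS7 KO without each library in turn.

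The labels give technical replicates and name nothing that same-numbered libraries of different genotypes share. Correlations of their deviations over 705 sites were -0.118 (PUS1 KO and WT), 0.158 (PUS7 KO and WT), -0.139 (TRUB1 KO and WT), -0.0708 (PUS7 KO and PUS1 KO) and 0.161 (TRUB1 KO and PUS1 KO), and -0.211 over 16 sites (RPUSD1 KO and WT), so a shared number is not shown to pair libraries. With the replicate block 1 site was higher in PUS1 KO, since position 39 of Arg-TCG-6 had an adjusted p of 0.0596, and the other counts of calls stayed within 1.5 times.

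Median WT levels with the untreated level subtracted were 57.7% at position 28, 80.8% at 39, 31.9% at 50, 85.0% at 55, 27.9% at 61 and 61.9% at 72. With counts summed per isoacceptor they were 27.02% at position 27, 60.8% at 28, 79.6% at 39, 49.998% at 50, 84.4% at 55 and 76.9% at 72, and with 100 reads or more 81.7% at 39. Depth limits the Arg-TCG-6 result at position 39 (30 WT reads at the lowest) and the Arg-TCG sites in RPUSD1 KO.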
